A study of Mus musculus with 2 samples.

Results

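The Mir379 to Mir410 cluster is a run of microRNA (miRNA) genes in the distal part of the imprinted Dlk1-Dio3 domain of mouse chromosome 12. Its members are given by position, under a rule chosen with earlier results of these data known. They are the genes of type miRNA in GENCODE M21 that lie on the plus strand of chromosome 12 from the start of Mir379 (109709060) to the end of Mir410 (109743795) in mm10. This rule gave 38 of the 2202 miRNA genes in the deposited tables, over 34.7 kb. Small RNA had been sequenced from the hippocampus of wild-type adult male C57BL/6 mice (strain B6NCrl, aged 6 months), in 2 libraries that form 1 group and are numbered as biological replicates 1 and 2. The labels describe the tissue as a layer of hippocampus without naming the layer. Each library has its own biosample entry but both carry 1 donor identifier, and the labels do not say whether separate animals were used. Any spread given here may therefore be technical. They also cite different versions of the adapter-trimming protocol, 1 per library, so that the version and the library cannot be told apart. There is no treated or mutant group, and the only contrast in the data is 1 library against the other. Values are read counts per hairpin gene on the strand of the gene, with both mature arms of a hairpin summed. Levels are given as CPM, counts scaled to a common total of reads on miRNA genes, and as mean ± SD over the libraries (n = 2). A read covers a whole mature miRNA, so levels were compared between genes without division by length. No correction was made for how well each sequence is captured in a library. Orders and folds between genes therefore compare reads, and may differ from those of the molecules in the tissue.

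A miRNA is cut from a hairpin precursor and guides Argonaute to messenger RNAs, mainly through its seed, bases 2 to 8 of the mature strand, and lowers their translation or stability. The genes of this cluster are expressed from the maternal chromosome together with the noncoding RNAs Meg3, Rian and Mirg, and are found in placental mammals. They are known for their expression in brain. In neurons, transcription of the cluster is known to rise with activity through the factor Mef2. Within it, miR-134 is known to act in dendrites, where it represses the kinase Limk1 and limits the size of spines, and miR-485 is known to repress the synaptic vesicle protein Sv2a. Mice that lack the cluster have been described as more anxious.

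Mature sequences are from RefSeq (GRCm38.p6, the assembly behind mm10), where 37 of the 38 members were matched by symbol, with 69 mature arms of 19 to 25 bases. The arms of the members with the highest levels and of those studied in neurons are shown here 5′ to 3′, with the seed in capitals. All lie on the plus strand of chromosome 12.
miR-487b-5p: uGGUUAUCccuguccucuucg
miR-382-5p: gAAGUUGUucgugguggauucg
miR-382-3p: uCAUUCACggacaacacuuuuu
miR-541-5p: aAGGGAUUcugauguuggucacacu
miR-541-3p: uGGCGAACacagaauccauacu
miR-411-5p: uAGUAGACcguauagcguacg
miR-485-3p: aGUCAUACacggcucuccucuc
miR-154-5p: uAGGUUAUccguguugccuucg
miR-154-3p: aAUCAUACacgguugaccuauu
miR-134-5p: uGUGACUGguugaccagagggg
miR-329-3p: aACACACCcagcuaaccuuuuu
miR-381-3p: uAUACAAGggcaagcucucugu

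The table holds both arms of 32 members, and miR-487b-3p, miR-485-5p, miR-539-3p, miR-376c-3p and Gm27379 are not matched. All counts of seeds and motifs cover the 69 matched arms. The 69 arms carry 63 distinct seeds, and 6 seeds are shared by arms of 2 members. These are the pairs on which members could be set side by side by seed. The first pair joins the first 2 genes of the cluster.
miR-379-3p: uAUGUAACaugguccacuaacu
miR-411-3p: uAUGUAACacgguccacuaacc
miR-379-5p: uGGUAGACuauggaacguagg
miR-1193-5p: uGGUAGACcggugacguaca
miR-494-5p: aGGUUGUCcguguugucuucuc
miR-410-5p: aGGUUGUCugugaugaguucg
miR-376c-5p: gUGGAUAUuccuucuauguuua
miR-376b-5p: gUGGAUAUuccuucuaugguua
miR-758-5p: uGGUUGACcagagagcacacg
miR-1197-5p: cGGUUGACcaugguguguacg
miR-453: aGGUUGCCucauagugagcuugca
miR-496a-5p: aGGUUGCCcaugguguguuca

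As a whole the cluster held 4.59% of the reads on miRNA genes in replicate 1 (194879 counts, exact 95% binomial interval 4.57 to 4.61%) and 4.09% in replicate 2 (206097 counts, 4.07 to 4.11%), or 4.34% ± 0.354 (SD, n = 2). Duplicate reads from PCR were not marked by molecular identifiers in the labels, and each interval or detection limit therefore describes counting error alone. Of the 38 members, 36 had a count in at least 1 library and 31 (81.6%) reached 10 CPM in both, against 302 of all 2202 genes (13.7%). Most genes of that background had no count, since only 714 had one in replicate 1 and 740 in replicate 2. Reads that aligned to several places are not counted, so genes with several copies can stand too low in this background and in the total. At 100 CPM in both libraries there were 21 members, at 1000 CPM 9 and at 5000 CPM 3. Median levels of the members at 10 CPM or more were 328 CPM in replicate 1 and 534 CPM in replicate 2, beside 238 and 276 CPM for all genes at that level. Ranked among all genes by counts, 10 members stood within the 100 highest in replicate 1 and 11 did in replicate 2.

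The libraries held 11106392 and 12627039 reads, of which 38.2% and 39.9% were counted on miRNA genes. The limit for a count of 0, taken as 3 counts, was 0.706 CPM in the first library and 0.595 CPM in the other. Reads that aligned to several places, 43.8% and 45.7% of reads, are in no gene's count. The tissue label was read against lists of marker miRNAs, which were chosen with earlier results of these data known. The neuronal list (7 of 12 genes at 10 CPM or more) had a sum of 47452 CPM in replicate 1 against 29318 CPM in replicate 2, the oligodendrocyte list (2 of 3) to 5817 and 8786 CPM, and the endothelial and mural list (3 of 3) to 8456 and 8769 CPM. Mir132 alone held 32072 and 14605 CPM of the neuronal sum, and of that list 3 genes passed as higher in replicate 2 and 4 as lower. Of the endothelial and mural list, Mir126a passed as higher, and Mir143 and Mir145a as lower. Microglia and leukocyte genes (3 of 5) summed to 2926 and 2627 CPM, pituitary genes (3 of 3) to 2703 and 2055 CPM, and erythroid genes (1 of 3) to 18.8 and 23.8 CPM. Of the neuronal list, the 3 genes of miR-124, which encode 1 mature sequence, were near 0, with 0 to 8 counts each. The choroid plexus and ciliated cell list (5 of 6) had a sum of 11342 CPM in the first library against 3408 CPM in the other, so the libraries differed in these markers. Of that list 4 genes passed as lower in replicate 2, and Mir449a passed as higher, with 17.7 and 28.0 CPM. Of the pituitary list, Mir7-2 passed as higher, and Mir7b and Mir375 as lower.

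**Figure D1:**
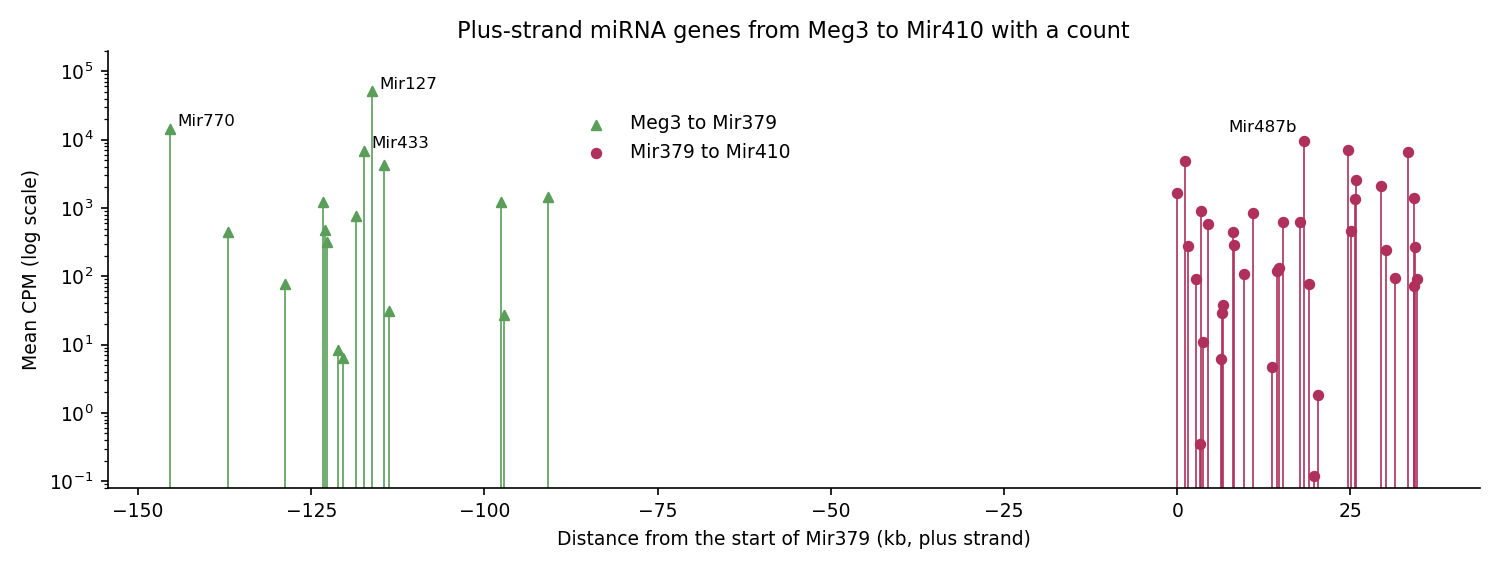
Mean CPM of 2 libraries (log scale) for each plus-strand miRNA gene with a count, from Meg3 to Mir410, against the distance of its start from the start of Mir379 in kb; triangles are the genes from Meg3 to the base before Mir379 and circles are the cluster. The cluster forms a block of 34.7 kb in which Mir487b is the highest member, below Mir127 and Mir770 of the preceding block.

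Reads were spread very unevenly over the members. The 5 highest members, Mir487b, Mir382, Mir541, Mir411 and Mir485, held 72.7% of the cluster's reads in replicate 1, with an exact 95% interval from 72.5 to 72.9%, against 67.4% in replicate 2 (67.2 to 67.6%). The 10 highest held 88.7% and 85.6%.

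Mir487b (ENSMUSG00000076219.1, chromosome 12, 109727333 to 109727414), which lies in no annotated host gene, had the highest level of the cluster, 9392 ± 2956 CPM. It stood at 11482 CPM in replicate 1 (48767 counts) and 7302 CPM in replicate 2 (36815 counts), and ranked 18th and 27th of all genes. Mir382 (chromosome 12, 109733771 to 109733846), in an exon of the noncoding gene Mirg, followed with 6715 CPM in replicate 1 and 7297 CPM in replicate 2 (7006 ± 411 CPM). The order of these genes was clear in replicate 1. In replicate 2 their exact 95% intervals overlapped, from 7228 to 7377 CPM for Mir487b and from 7222 to 7371 CPM for Mir382, so that no order could be given there.

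Mir541 (chromosome 12, 109742409 to 109742498), in an intron of Mirg, had 6506 and 6649 CPM in replicates 1 and 2 (6578 ± 101 CPM), the smallest SD among the 5 highest members. Mir411 (chromosome 12, 109710175 to 109710256), which is known as a target of RNA editing in brain, had 6476 and 3421 CPM (4948 ± 2160.2 CPM). In replicate 1 its interval (6400 to 6552 CPM) overlapped that of Mir541 (6430 to 6583 CPM), and in replicate 2 it stood well below Mir541. Mir485 (chromosome 12, 109734902 to 109734974), over an exon of Mirg, had 2167 and 2894 CPM (2531 ± 514 CPM).

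The next 5 members lay between 905 and 2097 CPM in the mean. Mir154 (chromosome 12, 109738433 to 109738498), in an intron of Mirg and the namesake of a family of related hairpins in this cluster, had 1944 CPM in replicate 1 and 2249 CPM in replicate 2. Mir379 (chromosome 12, 109709060 to 109709125), the first gene of the cluster, had 1971 and 1329 CPM (1650.2 ± 454 CPM). Mir409 (chromosome 12, 109743158 to 109743236) had 1356 and 1432 CPM. Mir668 (chromosome 12, 109734732 to 109734797) had 1218 and 1504 CPM, and Mir323 (chromosome 12, 109712508 to 109712593) had 878 and 932 CPM. The intervals of Mir379 and Mir154 overlapped in replicate 1, while Mir154 was the higher in replicate 2, and Mir379 went from above Mir409 and Mir668 in replicate 1 to below both in replicate 2.

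The other members fixed for naming because they are studied in neurons or end the cluster stood lower than Mir485. Mir134 (ENSMUSG00000065426.3, chromosome 12, 109734139 to 109734209), over an exon of Mirg, had 371 CPM in replicate 1 and 535 CPM in replicate 2 (453 ± 116 CPM), from 1574 and 2696 counts. Mir381 (chromosome 12, 109726822 to 109726896) had 469.7 and 789.6 CPM (629.7 ± 226 CPM), and Mir329 (chromosome 12, 109713481 to 109713577) had 638 and 534 CPM (586 ± 73.3 CPM). Mir410 (chromosome 12, 109743715 to 109743795), the last gene of the cluster, had 115 and 65.3 CPM (90.2 ± 35.3 CPM). In replicate 1 the order was Mir329, Mir381, Mir134. In replicate 2 Mir381 was the highest of these, and the intervals of Mir134 and Mir329 overlapped. Mir410 stood below all of them in both libraries. The plot of levels in genomic order shows that the ends of the cluster hold neither its highest nor its lowest members.

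**Figure D2:**
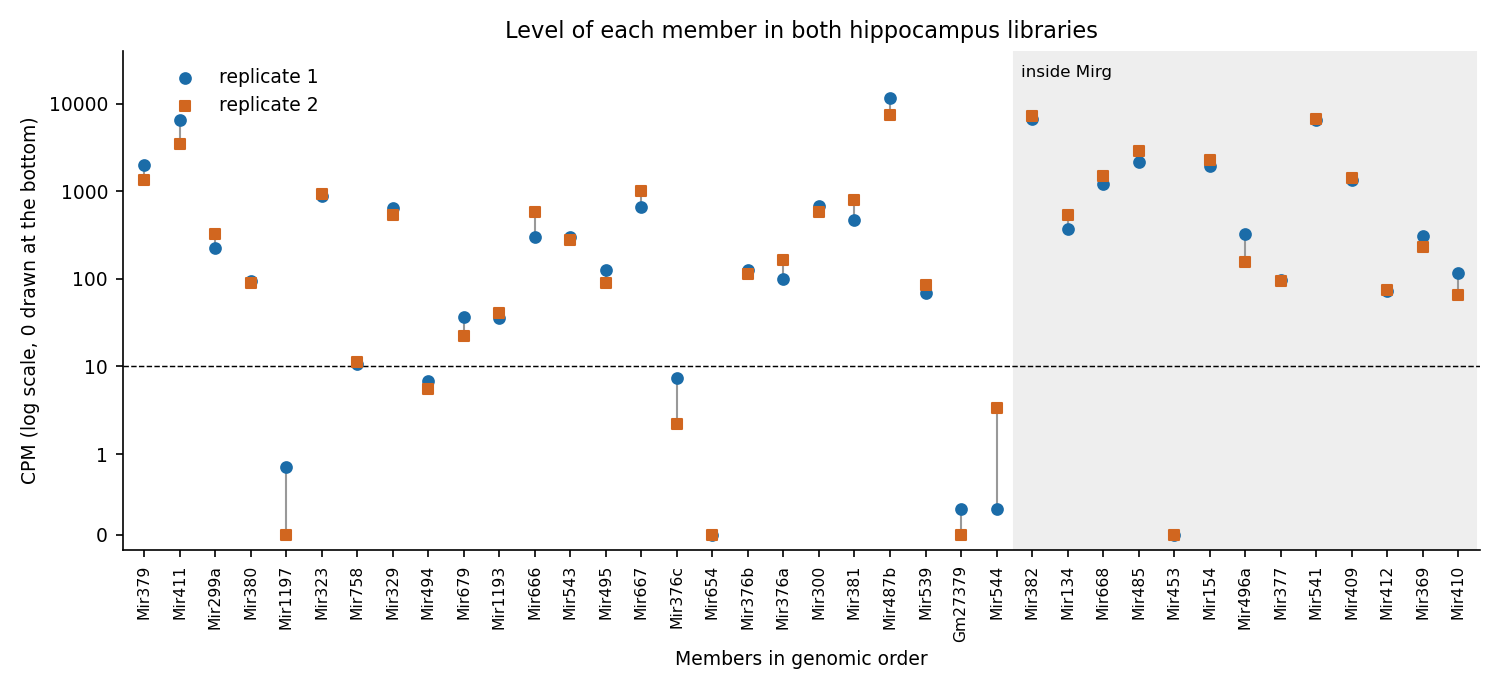
CPM of each of the 38 members (log scale, with a count of 0 drawn at the bottom) in replicate 1 (circles) and replicate 2 (squares), in genomic order; the dashed line marks 10 CPM and the shaded members lie inside Mirg. The 31 members above the line in both libraries span from near 10 CPM (Mir758) to 11482 CPM (Mir487b in replicate 1), and highs and lows alternate along the cluster.

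**Figure D3:**
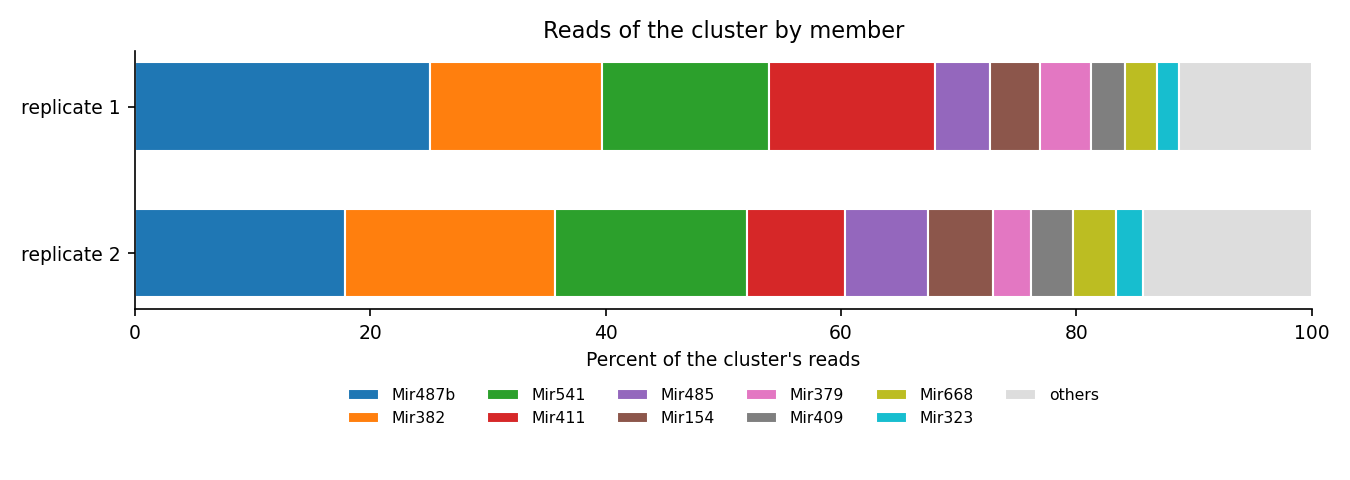
Percent of the cluster's reads held by each of the 10 members with the highest mean level and by the other 28 together, as 1 stacked bar per library. Mir487b held 25.02% in replicate 1 and 17.9% in replicate 2, and Mir411 held 14.1% and 8.37%.

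A further 7 members did not reach 10 CPM in both libraries. Mir654 (chromosome 12, 109723218 to 109723301) and Mir453 (chromosome 12, 109735619 to 109735700) had no count in either. The other 5 were picked out after their values were seen. Mir1197 had 3 counts in replicate 1 and 0 in replicate 2, Gm27379 had 1 and 0, and Mir544 had 1 and 17. Mir494 had 29 and 28 counts, and Mir376c had 31 and 11. Hairpins that share 20 bases with another annotated hairpin that does not overlap them, in either orientation, can lose reads to the class aligned to several places. Such a stretch was found in 5 members (Mir411, Mir758, Mir376b, Mir376c and Mir487b), whose levels leave out any read placed equally well elsewhere. It was sought over whole hairpins and not within mature arms, so a loss of reads from these members was not shown. Of the 7 low members, Mir376c is the one on that list.

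Neighbouring hairpins of the cluster, which are taken to arise from 1 long transcript, differed widely in level. Of 37 adjacent pairs, 16 differed over 10-fold in the same direction in both libraries, and 6 did so over 100-fold, with counts under 3 set to 3. Each of these 6 pairs holds Mir1197, Mir654, Mir544 or Mir453, which had 0 to 17 counts in a library. The largest folds thus set a member near 0 beside a higher one. Mir1197 and Mir323 lie 71 bases apart. Mir323 had 3727 counts against 3 in replicate 1, and 4697 against 0 in replicate 2, where it was at least 1566-fold higher. Mir485 was at least 3068-fold above the next gene, Mir453, in replicate 1 and at least 4864-fold above it in replicate 2. Mir409 and Mir412, 52 bases apart, differed by 18.7-fold and 19.5-fold, with Mir409 the higher. These pairs were picked out after their values were seen.

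Seed partners did not stand at like levels either. Of the pair that shares the seed of miR-379-3p, Mir411 was above Mir379 in both libraries (6476 against 1971 CPM in replicate 1, 3421 against 1329 CPM in replicate 2). The arms miR-379-3p and miR-411-3p are identical at 20 of 22 positions, counted without gaps from the 5′ end. Mir1193, which shares the seed of miR-379-5p, had 35.6 and 41.1 CPM, far under Mir379. Mir376b had 126 and 114 CPM, and Mir376c, its partner in the 5p seed, had 7.30 and 2.18 CPM, with the limit on shared hairpin sequence given above. Of the other pairs, Mir410 was above Mir494 (6.83 and 5.55 CPM), Mir496a (328 and 154 CPM) was above Mir453, and Mir758 (10.6 and 11.1 CPM) was above Mir1197. The counts do not say which arm of a hairpin the reads came from, so these values compare hairpins and not the arms that share the seed.

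Mir300 and Mir381 lie next to each other and have like 3p arms, which share an unbroken stretch of 16 bases while their seeds differ. Their levels were 669 and 582 CPM for Mir300 and 469.7 and 789.6 CPM for Mir381, so that Mir300 was the higher in replicate 1 and Mir381 in replicate 2.
miR-300-3p: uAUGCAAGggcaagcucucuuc
miR-381-3p: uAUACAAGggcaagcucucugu

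Outside the cluster, the seed of miR-329-3p is carried by miR-362-3p, from the X-linked gene Mir362. Mir362 had 15.1 and 14.3 CPM, so that Mir329 was the higher hairpin of this seed in both libraries. The seed of miR-410-3p is carried by arms of the Mir344 family on chromosome 7, of which Mir344d-3 had 44.0 and 38.1 CPM, below Mir410 in both libraries. Mir344d-1, Mir344d-2 and Mir344d-3 encode the same miR-344d-3p, so reads of that arm can be lost to the class aligned to several places. The count of Mir344d-3 may therefore stand too low, and its order against Mir410 is not settled. The other 3 outside genes at 10 CPM or more that share a member's seed stood above the member in both libraries. Mir370, in the block before the cluster, had 1691 and 1230 CPM, and miR-370-5p has the seed of miR-1193-3p (Mir1193, 35.6 and 41.1 CPM). Mir672 had 324 and 528 CPM, and miR-672-5p has the seed of miR-377-5p (Mir377, 96.1 and 93.2 CPM). Mir1983 had 675 and 620.4 CPM and has the seed of miR-412-3p (Mir412, 72.5 and 73.6 CPM). Of these 5 members, Mir329 and, with that limit, Mir410 were above the outside gene by counts, and the other 3 were below it.

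The mature arms of the cluster share short motifs, which can overlap the seed. The letters GGUNNNCC stood in 22 of the 69 arms (31.9%), 16 of them 5p arms, against 18 of 1609 arms of other miRNA genes in the tables (1.12%). In several 5p arms, such as miR-487b-5p and miR-494-5p, this motif begins at base 2 and covers the seed and the base after it. The letters ACANGG stood in 11 of 69 arms (15.9%), all of them 3p arms, against 44 of 1609 (2.73%). Both motifs were read on the strand of the miRNA only, over whole mature arms, and were chosen after the arms had been seen, so the counts are a description. Of 69 arms, miR-323-3p and miR-154-3p hold both. The 17 members with GGUNNNCC in an arm had a median of 241 CPM (mean of the libraries) and the other matched members had 280.5 CPM. The 11 members with ACANGG had a median of 629.7 CPM and the other matched members 126 CPM, again as a description with no test. Members with an unmatched arm could be counted as without a motif that this arm might hold. For ACANGG these include Mir487b, the highest member, Mir539 and Mir376c, whose 3p arms were not read. Hairpins of the cluster had a median length of 79 bases and a GC content of 29.1 to 64.6%, with a median of 43.3% over members at 10 CPM or more, beside 51.4% over all genes at that level.

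By the annotation, 25 members lie before the start of Mirg, in no annotated gene of another type, and 13 lie inside it, of which 8 overlap an exon of some Mirg transcript and 5 lie in introns. This division was made after the values were seen. Of the 25 members before Mirg, 19 reached 10 CPM in both libraries, with medians of 304 and 327 CPM. Of the 13 inside, 12 did, with medians of 795 and 983 CPM. Members inside Mirg held 46.2% of the cluster's reads in replicate 1, with an exact 95% interval from 46.0 to 46.4%, against 56.7% in replicate 2 (56.5 to 56.9%). Without Mir487b, which lies before Mirg, the mean share inside Mirg was 65.3% in place of 51.4%.

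The libraries were then compared member by member, with an exact two-sided binomial test on counts, Benjamini-Hochberg adjusted over every gene whose counts in both libraries summed to 10 or more. It sets the reads of 1 library against those of the other and says nothing of conditions, and with so many reads small differences pass. It called 26 of 34 tested members (76.5%), beside 51.0% of the 522 genes tested. Where the counts summed to 200 or more, it called 25 of 30 members and 226 of 276 genes in all. Of the called members 15 were higher in replicate 2 and 11 were lower, beside 28.2% and 22.8% of all tested genes. With TMM scaling or DESeq2 size factors in place of library sums, 25 members were called, 11 higher and 14 lower. Over all 522 genes the same scalings turned the balance likewise, from 147 higher and 119 lower to 123 and 135 with TMM and 122 and 135 with DESeq2. With a difference over 1.5-fold also required, 11 of the 34 tested members were called, beside 130 of the 522 tested genes (24.9%). Of the 31 members at 10 CPM or more in both libraries, 9 (29.0%) lay over 1.5-fold apart, beside 30.1% of all 302 genes at that level. This share is near the background.

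The median log2 ratio of these 31 members, replicate 2 over replicate 1, was 0.03, beside 0.05 over all genes at that level. With TMM scaling it was −0.04 and with DESeq2 size factors −0.04, so the median has no settled sign. The SD of the log2 ratio was 0.51 over the members and 0.67 over all genes at that level. Across the 31 members, log2 CPM in the libraries correlated with Pearson's r = 0.979 and CPM with Spearman's rho = 0.970. These are correlations across genes that share both libraries and are not independent replicates. The summed level of the cluster was lower in replicate 2, with a log2 ratio of −0.17 (exact 95% interval −0.18 to −0.16). Without Mir487b, Mir411 and Mir379, picked out after their values were seen, the sum was 2.60% of reads on miRNA genes in replicate 1 and 2.88% in replicate 2.

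The members furthest below in replicate 2, among those with a mean of at least 100 counts, were Mir496a, Mir411, Mir410, Mir679 and Mir487b. Mir496a (chromosome 12, 109739119 to 109739197) went from 328 to 154 CPM, a log2 ratio of −1.09 (exact 95% interval −1.22 to −0.96). Mir411 had a log2 ratio of −0.92 (−0.95 to −0.89) and Mir410 of −0.82 (−1.03 to −0.61). Mir679 (chromosome 12, 109715577 to 109715650), with 154 and 113 counts, had −0.69 (−1.06 to −0.33), and Mir487b had −0.65 (−0.67 to −0.63). All 5 passed the binomial test, and the interval of each lay below 0.

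The members furthest above in replicate 2 were Mir666, Mir381, Mir376a, Mir667 and Mir299a. Mir666 (chromosome 12, 109717085 to 109717183) went from 304 to 577 CPM, a log2 ratio of 0.93 (exact 95% interval 0.83 to 1.02). Mir381 had a log2 ratio of 0.75 (0.67 to 0.83). Mir376a (chromosome 12, 109723781 to 109723848), a miRNA known for RNA editing in brain, had 99.4 and 163 CPM, a log2 ratio of 0.71 (0.54 to 0.88). Mir667 (chromosome 12, 109720006 to 109720097) had 658 and 1007 CPM, a log2 ratio of 0.61 (0.55 to 0.68), and Mir299a (chromosome 12, 109710638 to 109710700) had 224 and 327 CPM, a log2 ratio of 0.54 (0.43 to 0.66). All 5 passed the test. Mir299a and Mir376a are among 5 members overlapped by a miRNA gene on the minus strand, for which the count without regard to strand is 0.

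Of the members studied in neurons, Mir134 was higher in replicate 2 by a log2 ratio of 0.53 (exact 95% interval 0.44 to 0.62) and Mir485 by 0.42 (0.38 to 0.46), while Mir329 was lower, at −0.26 (−0.33 to −0.18). Mir379 was lower in replicate 2, with a log2 ratio of −0.57. Mir668 had a log2 ratio of 0.30, Mir154 of 0.21 and Mir382 of 0.12, and all 3 passed as higher. For Mir323, Mir409 and Mir541 the log2 ratios were 0.09, 0.08 and 0.03. These 3 passed as higher in replicate 2 under library sums, but under TMM scaling Mir323 and Mir409 no longer passed and Mir541 passed as lower, at −0.04. The 8 tested members that did not pass had log2 ratios from −0.30 (Mir494) to 0.21 (Mir1193). The interval of Mir494, at 29 and 28 counts, ran from −1.10 to 0.50, so its counts leave log2 ratios across that range open. These ratios have no error between animals, since each rests on 1 library against 1.

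**Figure D4:**
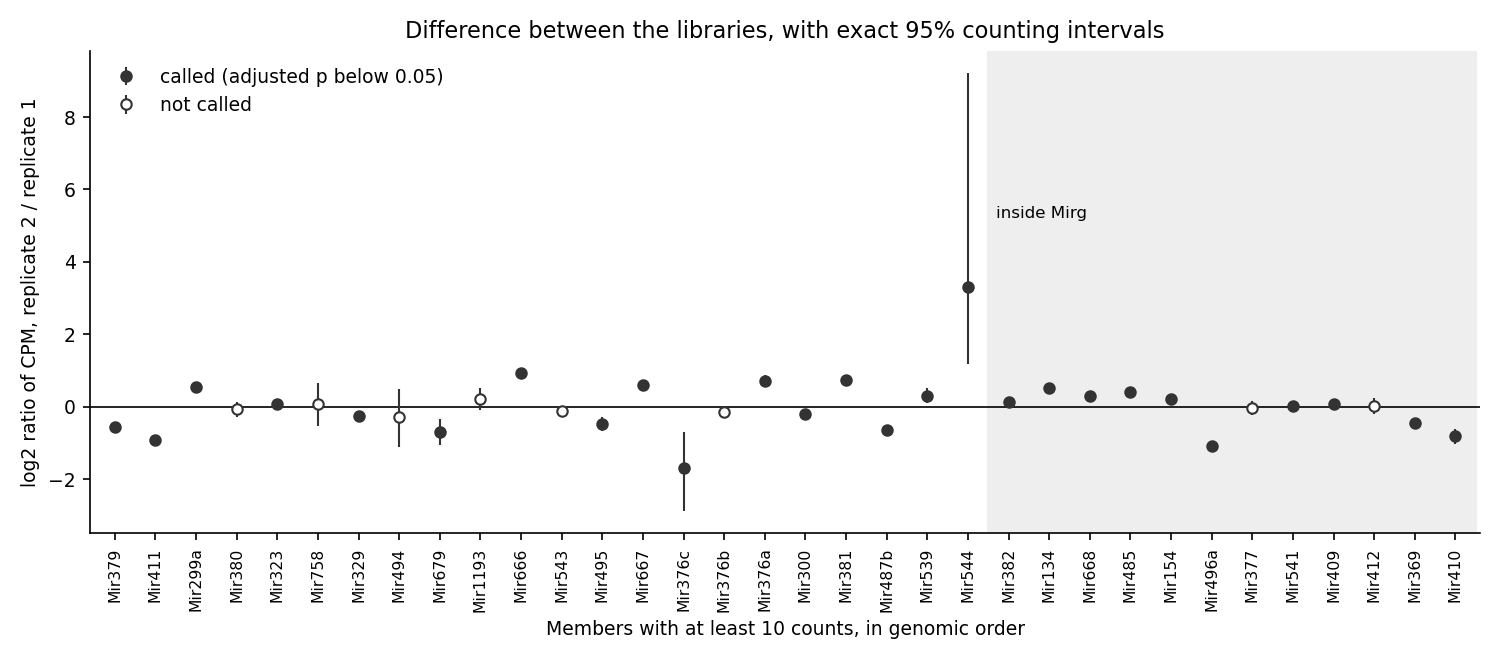
Log2 ratio of CPM, replicate 2 over replicate 1, for the 34 members with at least 10 counts in genomic order, with exact 95% counting intervals as bars; filled points passed the binomial test after adjustment and the shaded members lie inside Mirg. The 26 called members lie on both sides of 0 along the cluster, and the wide intervals belong to members with few counts (Mir376c, Mir494, Mir544, Mir758).

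Differences of depth, markers and base composition between the libraries were set beside these ratios. Over the detected genes of each list, the median log2 ratio was −1.80 for choroid plexus and ciliated cells, −0.58 for endothelial and mural cells, −0.44 for pituitary, −0.13 for microglia and leukocytes and −0.12 for neurons. It was 0.46 for oligodendrocytes and 0.59 for erythroid cells (1 gene). Their part in the ratios of the members was not tested. Across the 31 members the log2 ratio and the GC content of the hairpin had a Spearman's rho of 0.183, beside 0.312 over all 302 genes at that level, as a description across genes of the same libraries.

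The 20 plus-strand miRNA genes from the start of Meg3 to the base before Mir379 are the part of the domain next to the cluster. They held 8.47% of reads on miRNA genes in replicate 1 and 7.99% in replicate 2 (8.23% ± 0.344, SD, n = 2), so that the 38 genes of the cluster held fewer reads than these 20 in both libraries. Mir127, which is annotated opposite the retrotransposon-derived gene Rtl1, held most of that, with 52515 and 49033 CPM in replicates 1 and 2. Of the 20 genes, 14 reached 10 CPM in both libraries, and none of these 14 lay over 1.5-fold apart. Their log2 ratios had an SD of 0.26, beside the SD of 0.51 in the cluster, and this difference in spread was not tested. The scatter of both libraries shows the members on both sides of the diagonal.

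**Figure D5:**
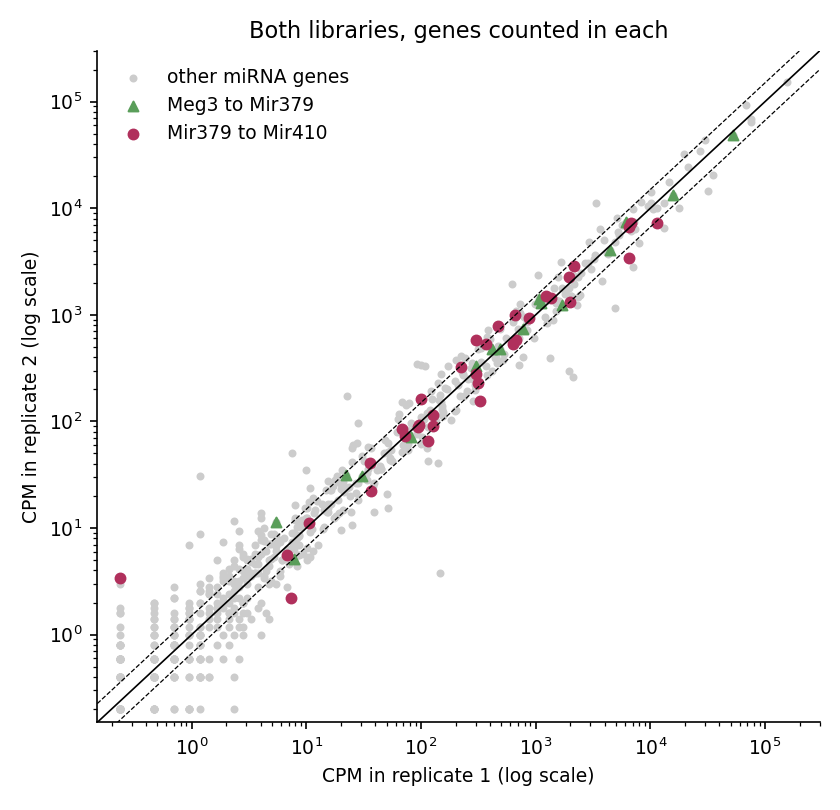
CPM in replicate 2 against CPM in replicate 1 (both log scales) for genes with a count in each library: other miRNA genes (small grey points), genes from Meg3 to Mir379 (triangles) and the cluster (large circles); the solid line marks equal levels and the dashed lines 1.5-fold. Of the 31 members at 10 CPM or more, 9 lie outside the dashed lines, 4 above and 5 below.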

How the data were processed

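The deposited tables, 1 per library, hold raw read counts per miRNA gene, which the authors did not normalise. A listing deposited with them names assembly mm10 and annotation M21. Aligner and counter, not given in the sources used here, remain unnamed. The tables have no header, and column 3 was taken as counts on the strand of the gene from the sums of the columns. The 4 summary rows entered no library size. CPM was computed over all gene rows (4247092 and 5041568 reads). Detection was set at 10 CPM in both libraries. The binomial test took genes whose counts summed to 10 or more and a threshold of 0.05, and 0.5 counts were added in log2 ratios. edgeR's quasi-likelihood test could not be fitted to 1 library against 1, so edgeR 4.0.16 and DESeq2 1.42.0 served for scaling only, in R 4.3.3. Tables were handled with pandas 2.3.3 and numpy 2.4.6, tests run with scipy 1.17.1 and plots drawn with matplotlib 3.10.9, under Python 3.11.15. The binomial procedure was tested on simulated counts with counting error alone and a known scaling. That test does not cover spread between libraries from other sources. The members and lists were chosen with earlier results of these data known. Members named are Mir379, Mir410, Mir134, Mir381, Mir382, Mir485, Mir487b, Mir329, the 10 highest, the 5 with the largest ratio each way at a mean of at least 100 counts, and those with no count; seed partners are set side by side.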

Additional observations from a re-analysis of the deposited data

How the results depend on the processing

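With 1 library left out, the cluster's share of reads was 4.09% or 4.59%, the share of its 5 highest members 67.4% or 72.7%, and the count at 10 CPM 31 either way. Over all reads of the tables in place of reads on miRNA genes, the cluster's share was 1.69%. It was 2.89% without the 5 members that share 20 bases with another hairpin and 3.40% without Mir487b, an alternative chosen after seeing the data. The number of members called different, of 34 tested, fell from 26 to 11 when over 1.5-fold was also required. Over all 522 tested genes the number called fell from 266 to 130. Under the other alternatives 22 to 26 members were called. The 22 were of 29 members tested without regard to strand, where 255 of 496 genes were called in all. The median log2 ratio of the members was −0.0415 with TMM scaling and −0.0446 with DESeq2 size factors, which moved the median of all genes by −0.07 and −0.08. It was 0.20 when scaled by the members alone, which moved all genes by 0.17, 0.00495 without regard to strand, and 0.0783 without members that share 20 bases. Mir541, the member at the median, likewise had a log2 ratio of −0.0415 with TMM scaling and −0.0446 with DESeq2 size factors. The binomial comparison needs both libraries and has no value with 1 left out, and no paired analysis was possible because there is 1 group.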
